A study of Rattus norvegicus with 6 samples.

Results

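The genes described here are those through which skeletal muscle receives and answers glucocorticoid hormone. There are 10 of them, taken as a fixed list of symbols: the glucocorticoid receptor *Nr3c1*, the mineralocorticoid receptor *Nr3c2*, the enzymes *Hsd11b1* and *Hsd11b2*, and the induced targets *Fkbp5*, *Tsc22d3*, *Sgk1*, *Glul*, *Cebpd* and *Klf9*. Each was found through its RefSeq accession in a rat gene table, all 10 had a row on the array, and each had 1 row, out of 26299 features in all, of which 9627 carry a symbol. For the gene lists below, a gene with a row is one whose symbol was matched in this way, and a gene without one may still be on the array. Skeletal muscle RNA was taken from 3 lower birth weight (LBW) and 3 average birth weight (ABW) pups, all male Wistar rats aged 1 day, grouped by birth weight, with no treatment and no altered allele named in the labels. LBW pups lay in percentiles 5 to 25 of birth weight. The labels place the control pups in percentiles 25 to 75 in one field and in 50 to 75 in the protocol, and they are called ABW here. RNA of each pup was hybridized to a single-colour NimbleGen array of its own, and all values below are log2 signals normalized by the authors. The litter of each pup, the slide and the scan are not given in the sources used here, so that the spread between pups may hold differences of litter or slide. The markers of skeletal muscle were bright: *Acta1*, the main actin of the sarcomere, was the brightest of the 11 with a row, at a mean of 15.34 over the pups, and none of the 11 passed the threshold used below between the groups.

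Glucocorticoids enter the cell and bind Nr3c1, which leaves a complex of heat shock proteins, moves to the nucleus and binds DNA at response elements near the genes that it turns on. The enzyme Hsd11b1 makes active hormone from its inactive keto form inside the cell, while Hsd11b2 does the reverse and keeps cortisol and corticosterone away from Nr3c2, the receptor that also binds aldosterone. Glucocorticoids rise before birth, mature the fetal organs and, in excess, slow growth and waste muscle.

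The targets differ in the sequence before their start sites, and a pair is shown because *Klf9* had the largest difference between the groups of the 10 genes while *Fkbp5*, the target most used as a readout of the receptor, did not pass the threshold. The sequences are the 250 bases before the annotated start, read 5′ to 3′ from the RefSeq table of assembly GRCr8, and the build on which the array was designed is not given in the sources used here. *Klf9* lies on the plus strand at chr1:230126396-230126645 and *Fkbp5* on the minus strand at chr20:6543556-6543805. Capitals mark the GC box (GGGCGG or CCGCCC) and the CCAAT box (CCAAT or ATTGG), searched on both strands.
Klf9: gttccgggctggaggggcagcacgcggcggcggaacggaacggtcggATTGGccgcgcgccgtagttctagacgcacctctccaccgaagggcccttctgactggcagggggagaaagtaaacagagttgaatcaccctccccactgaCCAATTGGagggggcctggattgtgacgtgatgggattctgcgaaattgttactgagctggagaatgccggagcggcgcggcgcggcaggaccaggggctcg
Fkbp5: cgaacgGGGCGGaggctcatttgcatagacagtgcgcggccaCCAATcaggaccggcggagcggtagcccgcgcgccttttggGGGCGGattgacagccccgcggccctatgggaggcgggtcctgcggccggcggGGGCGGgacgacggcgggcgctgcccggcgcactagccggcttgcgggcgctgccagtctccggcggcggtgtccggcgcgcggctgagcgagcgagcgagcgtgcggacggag
*Klf9* held no GC box and 3 matches to the CCAAT box, of which 2 overlap on opposite strands, while *Fkbp5* held 3 GC boxes and 1 CCAAT box. A GC box is found in 30.5% and a CCAAT box in 34.0% of the 33469 windows of this length in the table. The palindrome of the glucocorticoid response element, AGAACA and TGTTCT with any 3 bases between them, is in 0.012% of all windows, and a single arm of it (AGAACA or TGTTCT) is in 17.5%. Neither was found in any of the 12 windows that the table holds for 6 of the members (*Nr3c1*, *Fkbp5*, *Tsc22d3*, *Sgk1*, *Glul* and *Klf9*), which says only that these letters are not in these windows. *Nr3c2*, *Hsd11b1*, *Hsd11b2* and *Cebpd* had no entry.

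The receptors and enzymes did not pass the threshold, whereas *Klf9* and *Cebpd* among the induced targets did, both higher in LBW. Passing here means an unadjusted p under 0.05 by limma together with a fold change of at least 1.5, which are the limits given in the methods of the study. Of the 26299 features 4.27% passed, 2.38% higher and 1.89% lower in LBW. The count among the members was thus 2 of 10. After Benjamini-Hochberg adjustment over the 26299 features, 0 (0%) passed 0.05 by limma, the smallest adjusted value of all being 0.214. At an unadjusted p under 0.05 alone, 3250 features (12.4%) passed by limma, among them 3 members, *Glul* being the other. The count of members was 1 without LBW 2 and 3 without LBW 3, and it was 2 with any other pup left out.

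*Nr3c1* had nearly the same signal in all pups. It was at 11.17, 11.25 and 11.13 in LBW 1, 2 and 3 and at 11.22, 11.23 and 11.29 in ABW 1, 2 and 3. The groups overlapped, and the SD over the 6 arrays, 0.056, was smaller than that of all but 4.69% of the features. The log2 fold change of LBW over ABW was -0.06 (SE 0.08 and limma adjusted p = 0.807), and its 95% interval ran from -0.26 to 0.13, which leaves out a change of 1.5-fold in either direction.

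*Nr3c2*, which binds glucocorticoids as tightly as it binds aldosterone, varied more. It was at 9.81, 10.17 and 9.73 in LBW 1, 2 and 3 and at 9.67, 9.43 and 9.95 in the ABW pups. LBW 2 was the highest and ABW 2 the lowest of all pups, and the other pups of both groups lay between them. The LBW to ABW difference was 0.22 (SE 0.18 and limma adjusted p = 0.653), and it ran from 0.086 without LBW 2 to 0.35 without ABW 3.

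*Hsd11b1*, the activating enzyme, was at 11.41, 11.13 and 10.66 in LBW 1, 2 and 3 and at 11.39, 10.95 and 11.02 in ABW 1, 2 and 3. LBW 1 and ABW 1 had the highest signals and LBW 3 the lowest, so that the values of the groups were interleaved. LBW less ABW gave -0.05 (SE 0.22 and limma adjusted p = 0.943), with a 95% interval from -0.57 to 0.47. The sign of this small value turned without LBW 3 (0.15) and without ABW 1 (0.084).

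*Hsd11b2*, the inactivating enzyme, was at 10.35, 10.56 and 9.54 in LBW 1, 2 and 3 and at 10.24, 9.98 and 9.89 in the ABW pups. LBW 3 was again the lowest pup, and LBW 1 and LBW 2 were above all ABW pups. LBW less ABW gave 0.11 (SE 0.27 and limma adjusted p = 0.896), and it ran from -0.091 when LBW 2 was left out to 0.42 when LBW 3 was left out. Relative to the ABW means, *Hsd11b1* less *Hsd11b2* was -0.02, -0.51 and 0.04 in LBW 1, 2 and 3, against 0.07, -0.12 and 0.05 in the ABW pups. LBW 2 lay below the ABW range by this measure, and LBW 1 and LBW 3 lay within it.

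**Figure D1:**
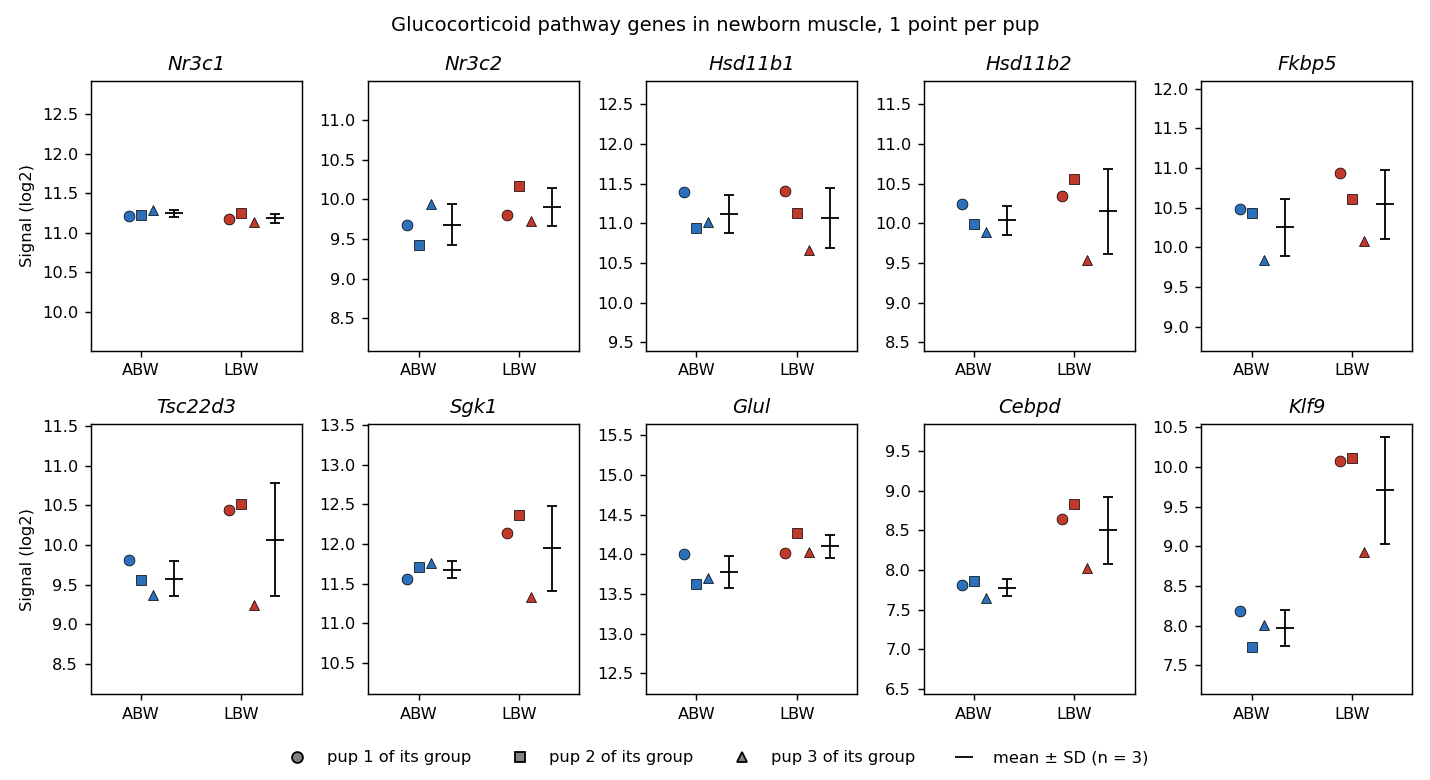
Normalized log2 signal of each of the 10 genes, with 1 point per pup (circle, square and triangle for pups 1, 2 and 3 of a group), ABW in blue and LBW in red, and the mean ± SD (n = 3) beside them; each panel spans the same range of log2 units around its own mean. *Nr3c1* lies flat, *Klf9* and *Cebpd* separate the groups, and LBW 3 lies below LBW 1 and LBW 2 for every target except *Glul*, where LBW 1 is lowest.

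*Klf9*, a zinc finger transcription factor that glucocorticoid and thyroid hormones induce, differed most between the groups. It was at 10.07, 10.12 and 8.93 in LBW 1, 2 and 3, against 8.18, 7.73 and 8.01 in ABW 1, 2 and 3. The groups did not overlap, LBW 1 and LBW 2 lay close together, and LBW 3 was about midway between them and the ABW pups. The LBW to ABW difference was 1.73 (SE 0.33 and limma adjusted p = 0.238), a fold change of 3.32, and the absolute change was greater than that of 99.8% of all features. The exact permutation test gave a 2-sided p of 0.1, the smallest that 3 pups against 3 allow. Across the fits that leave out a pup it stayed between 1.53 (without LBW 2) and 2.12 (without LBW 3), and *Klf9* passed the threshold each time. The study had picked *Klf9* on these arrays, so that its difference is not independent evidence for the list.

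*Cebpd*, a leucine zipper transcription factor of the acute phase and of early adipocyte differentiation, followed the same order of LBW pups. It was at 8.65, 8.83 and 8.03 in LBW 1, 2 and 3 and at 7.82, 7.86 and 7.65 in the ABW pups. LBW 3 was nearest to the ABW pups, and the groups did not overlap (exact permutation test, 2-sided p = 0.1). LBW less ABW gave 0.73 (SE 0.21 and limma adjusted p = 0.302), a fold change of 1.65. Without LBW 2 it was 0.56, which is short of 1.5-fold, and *Cebpd* no longer passed.

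*Glul*, glutamine synthetase, is the enzyme with which muscle exports nitrogen as glutamine. It was at 14.01, 14.26 and 14.03 in LBW 1, 2 and 3 and at 14.00, 13.63 and 13.70 in ABW 1, 2 and 3. The groups did not overlap, but LBW 1 and ABW 1 all but touched (exact permutation test, 2-sided p = 0.1). The LBW to ABW difference was 0.32 (SE 0.13 and limma adjusted p = 0.403), which is a fold change of 1.25 and so did not pass. Over all features, 17.4% had groups that did not overlap, 7.27% with all LBW above all ABW and 10.1% with all LBW below. Among the members *Klf9*, *Cebpd* and *Glul* had all LBW above all ABW, and none had all LBW below.

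The other targets were high in LBW 1 and LBW 2 and within or below the ABW signals in LBW 3. *Tsc22d3*, whose product (the glucocorticoid-induced leucine zipper) dampens inflammatory transcription, was at 10.44 and 10.52 in LBW 1 and LBW 2 but at 9.24 in LBW 3, and the ABW signals were 9.81, 9.56 and 9.37. LBW 3 was thus the lowest of all pups. The LBW to ABW difference was 0.49 (SE 0.35 and limma adjusted p = 0.612), and the SD of the LBW pups was 0.71 against 0.22 in the ABW pups. Without LBW 3 it was 0.90 (SE 0.15) and passed the threshold, whereas it was 0.30 without LBW 1 and 0.26 without LBW 2.

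*Sgk1*, the kinase through which both receptors raise sodium transport, was at 12.14, 12.37 and 11.34 in LBW 1, 2 and 3 and at 11.56, 11.71 and 11.76 in the ABW pups. As for *Tsc22d3*, LBW 1 and LBW 2 were above and LBW 3 below all ABW pups. LBW less ABW gave 0.27 (SE 0.26 and limma adjusted p = 0.719), and it moved between 0.06 (without LBW 2) and 0.57 (without LBW 3). *Fkbp5*, the co-chaperone that lowers the affinity of the receptor for its hormone, was at 10.93, 10.61 and 10.08 in LBW 1, 2 and 3 and at 10.49, 10.43 and 9.84 in ABW 1, 2 and 3. LBW 1 and LBW 2 were above all ABW pups, and LBW 3 was within their range. The log2 fold change of *Fkbp5* was 0.29 (SE 0.27 and limma adjusted p = 0.707), and it was 0.080 without ABW 3, 0.091 without LBW 1 and 0.52 without LBW 3.

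**Figure D2:**
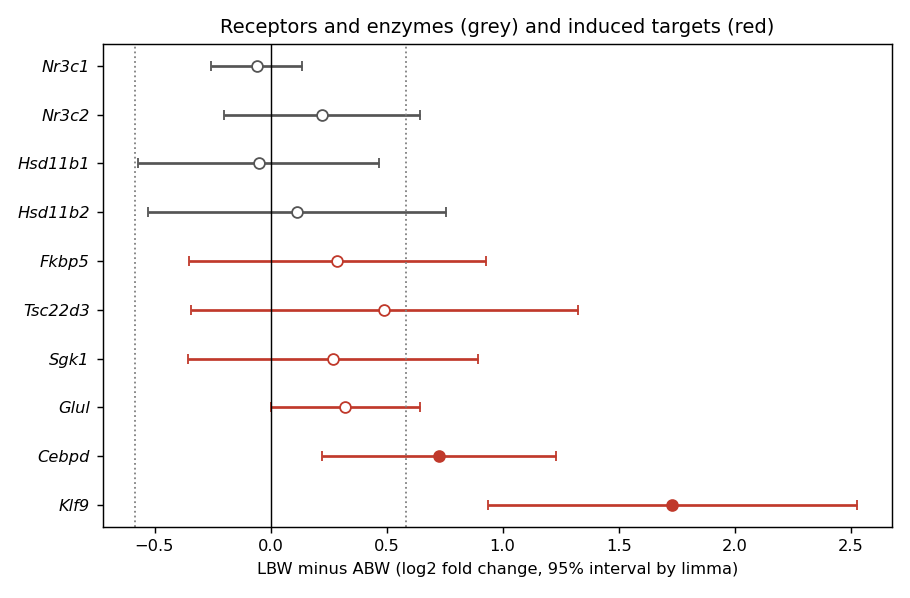
Log2 fold change of LBW over ABW for each of the 10 genes with the 95% interval by limma; grey marks receptors and enzymes, red the induced targets, filled points those past the threshold, and dotted lines a fold change of 1.5. All 6 targets lie to the right of 0, and only *Klf9* and *Cebpd* have an interval that leaves out 0 and a point beyond the dotted line.

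Set against each other, the targets, of which *Klf9* and *Cebpd* passed, had a higher mean in LBW 1 and LBW 2 than in any ABW pup, and the mean of *Nr3c1* and *Hsd11b1* was within the ABW range in those pups and below it in LBW 3. All 6 targets had a log2 fold change above 0, where 44.4% of all features did and 55.6% had one below 0. Their mean was 0.64 and their median 0.41, and without *Klf9* the mean was 0.42, beside -0.06 for the mean of *Nr3c1* and *Hsd11b1* and -0.02 for the median of all features. The targets less *Nr3c1* and *Hsd11b1* gave 0.69, or 0.47 without *Klf9*. In the single pups this difference, relative to the ABW means, was 0.76, 0.94 and 0.38 in LBW 1, 2 and 3, against 0.02, 0.08 and -0.09 in the ABW pups. Leaving out LBW 2 gave 0.57 and leaving out LBW 3 gave 0.85 for the group difference. In LBW 3 the targets alone were 0.10 above the ABW mean (-0.07 without *Klf9*), and *Nr3c1* with *Hsd11b1* was at -0.28. In LBW 1 and LBW 2 the targets were at 0.87 and 0.94, and each of the 6 was above every ABW pup, whereas in LBW 3 this held for 3, *Klf9*, *Cebpd* and *Glul*. LBW 2 had the highest LBW signal for 5 of the 6 targets and LBW 3 the lowest for 5. No test was made of a score over the genes, since they were chosen as a list with results of these arrays known.

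Other genes that glucocorticoids are known to induce were read from a list of 30, of which 24 had a row. Of the 24, 18 were higher in LBW and the median log2 fold change was 0.16. Over all features 4.27% passed the threshold, and of the 24 genes 1 did. This was *Igfbp1*, which binds insulin-like growth factors (1.09, SE 0.25 and limma adjusted p = 0.264), and no gene of the list passed in the lower direction. Its signal was low, with 7.30, 6.54 and 7.43 in LBW 1, 2 and 3 and 5.93, 5.83 and 6.26 in the ABW pups. Its means in both groups lie under 7.35, the 95th percentile of 1184 olfactory receptor genes. This value was taken as a floor for the mean over all pups after the data were seen. Whether muscle uses any of these receptor genes was not tested. All 10 members were above the floor, and 7 of the 24 genes were under it (*Cebpb*, *Ddit4*, *G6pc1*, *Igfbp1*, *Il1r2*, *Klf15* and *Tat*). Unlike the members, *Igfbp1* was highest in LBW 3.

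*Zbtb16*, *Per1* and *Trim63* did not pass with all pups, although all 3 did with an intensity trend or array weights, and were higher in LBW 1 and LBW 2 than in any ABW pup. *Zbtb16*, a zinc finger repressor strongly induced by glucocorticoids in many cell types, was at 10.83 and 10.57 in LBW 1 and LBW 2 but at 8.55 in LBW 3, near the ABW signals of 8.80, 8.59 and 8.43. The difference was 1.37 (SE 0.58 and limma adjusted p = 0.409). LBW 3 lay within the ABW values, and without it the log2 fold change was 2.09 (SE 0.15 and limma adjusted p = 0.146), while without LBW 1 it was 0.95. *Per1*, a clock gene with a glucocorticoid response element, was at 11.02, 11.07 and 9.15 in LBW 1, 2 and 3 and at 8.91, 9.49 and 9.37 in the ABW pups. The difference was 1.16 (SE 0.52 and limma adjusted p = 0.437), and it ran from 0.83 without LBW 2 to 1.79 without LBW 3. *Trim63*, the muscle ubiquitin ligase MuRF1, was at 10.98, 11.40 and 10.38 in LBW 1, 2 and 3 and at 10.55, 10.29 and 10.15 in the ABW pups, with a log2 fold change of 0.59 (SE 0.26 and limma adjusted p = 0.431) that was 0.86 without LBW 3 and 0.35 without LBW 2. Without LBW 3 these 3 genes passed beside *Igfbp1*, so that 4 of 24 were called, in a fit that called 1224 of the 26299 features. Without LBW 2, where 1546 features were called, the count was 2, *Igfbp1* and *Il1r2*, the decoy receptor of interleukin 1 (under the floor). Without ABW 1 *Pck1* passed in the lower direction.

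The other ligase of muscle atrophy, *Fbxo32* (atrogin-1), was at -0.10 (SE 0.19 and limma adjusted p = 0.858), and *Mstn* (myostatin) at -0.18 (SE 0.11 and limma adjusted p = 0.575). Both are also counted among glucocorticoid targets in muscle. *Pck1*, a gluconeogenic and adipocyte enzyme, varied more between pups than between groups, from 8.53 in ABW 1 to 11.64 in ABW 2, with 8.69, 10.96 and 9.28 in LBW 1, 2 and 3. *Errfi1*, an inhibitor of the epidermal growth factor receptor singled out after its values were seen, was at 12.82, 12.82 and 12.62 in the LBW and at 12.30, 12.26 and 12.30 in the ABW pups. It was higher in every LBW pup, with 0.46 (SE 0.09 and limma adjusted p = 0.244), which is 1.38-fold and so short of the threshold.

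**Figure D3:**
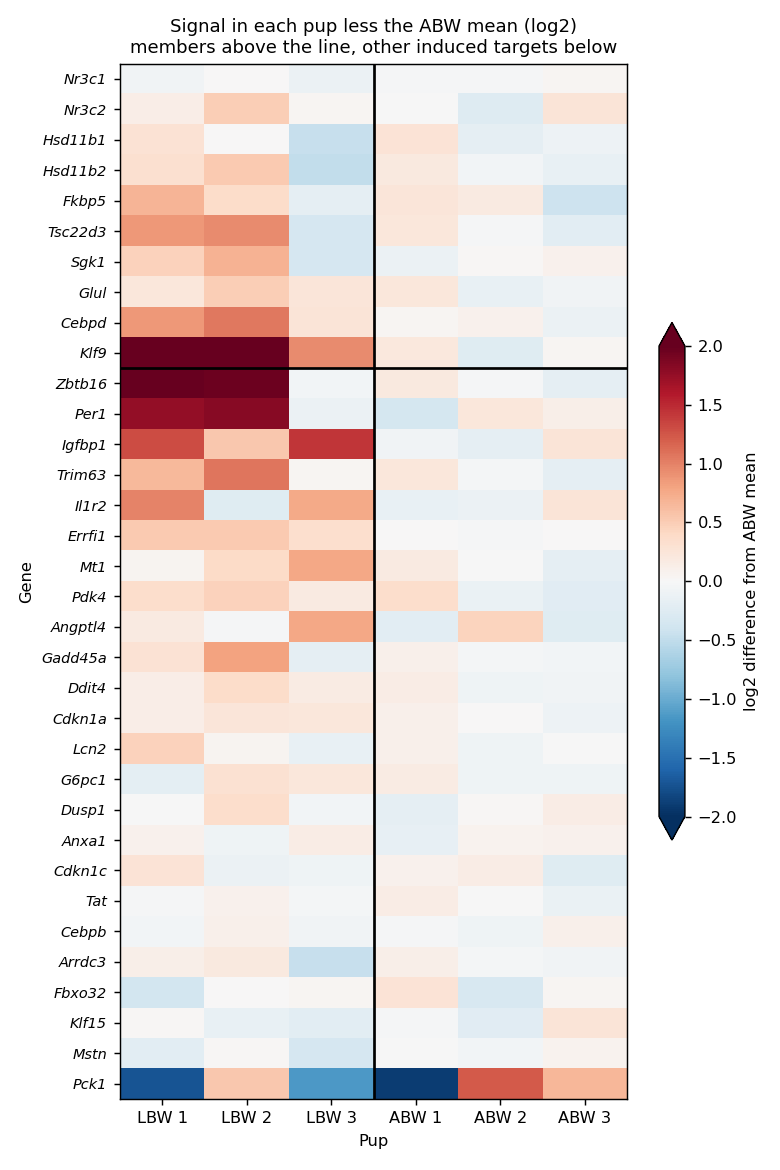
Signal of the 10 genes (above the line) and of 24 other induced targets (below it, sorted by log2 fold change) in each pup less the ABW mean, on a log2 colour scale from -2 to 2, beyond which *Klf9* in LBW 1 and LBW 2 and *Zbtb16* in LBW 1 are drawn in the end colour. Red cells gather in LBW 1 and LBW 2 at *Tsc22d3*, *Cebpd*, *Klf9*, *Zbtb16* and *Per1*, and LBW 3 shows red at *Klf9* but not at *Zbtb16* or *Per1*.

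Upstream of the targets, the chaperones that hold the receptor and the coregulators that it recruits did not pass. Of 12 chaperones and co-chaperones 8 had a row, 5 higher and 3 lower in LBW, with a median log2 fold change of 0.04. The phosphatase *Ppp5c* (0.17), *Dnaja1* (-0.14), the cyclophilin *Ppid* (0.14) and *Hsp90aa1* (0.07) had the largest changes. Of 12 coregulators 4 had a row, with a median of 0.11. They were the acetyltransferase *Crebbp* (0.23), the methyltransferase *Carm1* (0.20), *Ncoa2* (-0.13) and *Tob1* (0.02). None of these 12 genes passed in either direction, and their number was small because most of the coregulators had no row with a matched symbol.

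The steroid supply list covers hormone synthesis, transport and the sugar phosphate carrier that feeds Hsd11b1. Of its 10 genes 9 had a row, 3 higher and 6 lower, with a median of -0.05 and none past the threshold. The carrier *Slc37a4* was at -0.07 (SE 0.12 and limma adjusted p = 0.840). *Star*, which brings cholesterol into mitochondria, had the largest change (-0.27), followed by *Serpina6*, the corticosteroid-binding globulin (0.11), the aldosterone synthase *Cyp11b2* (-0.09) and the exporter *Abcb1a* (0.08). Of the 9 genes 7 were under the olfactory receptor floor, among them the adrenal enzymes *Cyp11a1*, *Cyp11b1*, *Cyp11b2* and *Cyp21a1*.

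Sodium transport genes, which both receptors regulate in epithelia, had 7 of 8 genes with a row, 3 higher and 4 lower, and none past the threshold. *Atp1b1*, the beta subunit of the sodium pump, was at 0.30 (SE 0.12 and limma adjusted p = 0.379), which is less than 1.5-fold. The sodium channel subunits *Scnn1b* (-0.25), *Scnn1g* (-0.24) and *Scnn1a*, together with the potassium channel *Kcnj1*, were under the floor. Inflammatory genes that glucocorticoids repress had 12 of 13 with a row, 4 higher and 8 lower, with a median of -0.13. *Ccl2*, the monocyte chemokine, was the 1 gene past the threshold, lower in LBW (-0.67, SE 0.26 and limma adjusted p = 0.378). It was at 10.39, 10.64 and 11.39 in LBW 1, 2 and 3 and at 11.68, 11.34 and 11.40 in the ABW pups, so that LBW 3 overlapped with them. It lost the call in the fits without LBW 1, LBW 2 or any ABW pup, among others, while *Ptgs2*, the inducible cyclooxygenase, passed without LBW 2 and *Nos2* without ABW 1. With all pups *Ptgs2* (-0.47), *Nos2* (-0.44) and *Tnf* (-0.23) did not pass, and 6 of the 12, *Il1b* and *Il6* among them, were under the floor.

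Clock genes are given beside the targets because glucocorticoids reset peripheral clocks and *Per1* and *Per2* are also their targets. Of 16 genes 13 had a row, 10 were higher in LBW, and the median log2 fold change was 0.26. *Per2* (0.64, SE 0.14 and limma adjusted p = 0.254) and *Nr1d1* (0.60, SE 0.18 and limma adjusted p = 0.303), the repressor Rev-erb alpha, passed in the higher direction and none in the lower. *Per2* was at 9.65, 9.37 and 9.18 in LBW 1, 2 and 3 and at 8.66, 8.88 and 8.73 in the ABW pups, and *Nr1d1* at 11.78, 11.71 and 11.25 against 11.20, 10.94 and 10.80. Both kept LBW 3 nearest to the ABW pups but apart from them. *Per1* and *Bhlhe41* (0.36), which is under the floor, were the others of the 4 largest changes. The count of 2 was 0 without LBW 1, 1 without LBW 2, ABW 2 or ABW 3, and 3 without LBW 3, where *Per1* joined. The mean of the 13 genes relative to ABW was 0.37, 0.36 and 0.07 in LBW 1, 2 and 3, against 0.01, 0.04 and -0.04 in the ABW pups. By this mean LBW 3 was close to the ABW pups in the clock genes too, but the mean joins genes of either sign. In 4 of the 13 genes all LBW pups, LBW 3 among them, were above all ABW pups, beside 7.27% of all features.

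Genes of other cells in the muscle samples differed between the groups as well. The order of the LBW pups was unlike that of the targets for bone, cartilage and neutrophil precursor genes and like it for adipocyte genes. In RNA of a whole muscle, fewer cells of a type and less RNA per cell cannot be told apart. Of 13 bone genes listed, 5 of them among the most raised or lowered genes that the study printed from these arrays (its longer lists were not used here), 11 had a row with a matched symbol, 10 were higher in LBW and 6 passed, led by *Spp1* (5.02), *Ibsp* (4.73) and *Bglap* (3.60), with *Phex* (0.60) as the brightest. Relative to ABW their mean was 2.74, 0.44 and 3.55 in LBW 1, 2 and 3, whereas the ABW pups were between -0.10 and 0.15. LBW 2, which had the highest induced targets, thus had the lowest bone signal of the LBW pups, and LBW 3, with the lowest targets, had the highest. The number of bone genes called was 10 without LBW 2, 4 without LBW 3 and 3 without LBW 1, and *Dlx5*, *Mepe* and *Sost* were under the floor. Of the 6 that passed, *Spp1* and *Alpl* had ABW means under the floor (7.32 and 7.29) but LBW means above it (12.35 and 9.97). The differences of *Spp1* and *Alpl* are thus not exact fold changes. Cartilage genes (5 of 10 with a matched row, 2 of the 10 picked by the study) were at 0.97, -0.13 and 1.77 in LBW 1, 2 and 3, led by *Acan* (2.07), *Hapln1* (1.17) and *Comp* (0.83), with *Col2a1* the brightest (0.33), while *Hapln1* and *Matn1* were under the floor. *Acan* alone passed, it did so in none of the fits without LBW 1, LBW 3 or an ABW pup, and without LBW 2 there were 3 calls.

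Of the 4 neutrophil precursor genes with a matched row (10 listed, 5 of them picked by the study), *Mmp8* (3.03), *S100a9* (2.19) and *S100a8* (2.05) passed, higher in LBW, and *Lcn2*, the brightest and also a glucocorticoid target, was at 0.12. Their mean was 2.32, 1.08 and 2.14 in LBW 1, 2 and 3, against -0.06, 0.17 and -0.11 in the ABW pups. The ABW mean of *Mmp8* (5.87) was under the floor and its LBW mean (8.90) above it, so that its difference is not an exact fold change. Adipocyte genes, which matter here because fat is rich in *Hsd11b1* and *Cebpd* acts in it, were lower in LBW for 10 of the 11 with a row (12 listed, 3 picked by the study), and 3 passed, *Lep* (-1.57), *Pparg* (-1.20) and *Adrb3* (-1.14). *Retn* was at -1.38 and the brightest, *Fabp4*, at -0.19, while *Ucp1* was under the floor, as were *Lep* and *Adrb3* by their mean over all pups but not by their ABW means (7.44 and 7.68). The adipocyte mean was -0.60, -0.41 and -1.38 in LBW 1, 2 and 3 and -0.73, 0.50 and 0.23 in ABW 1, 2 and 3. LBW 3, with the lowest *Hsd11b1* and *Hsd11b2*, was thus the lowest in adipocyte genes too, but ABW 1, low in these genes, had one of the highest *Hsd11b1* signals. Without ABW 1 there were 6 adipocyte calls, without LBW 2 there were 3 (*Adipoq*, *Pparg* and *Adrb3*), and without any other pup only *Pparg* passed. With the variance of each feature estimated on its own, 3 bone genes, no cartilage gene, no adipocyte gene and the same 3 neutrophil precursor genes passed, *Mmp8*, *S100a8* and *S100a9*.

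Macrophage genes (8 of 10 with a row, 2 higher and 6 lower, median -0.14) and fibroblast genes (5 of 8 with a row, all 5 lower, median -0.13) had none past the threshold. *Adgre1* (-0.51), *Csf1r* (-0.26) and *C1qc* (-0.22), the brightest, changed most in the former list, and *Col1a2* (-0.17), the brightest, *Lum* (-0.14) and *Thy1* (-0.13) in the latter. Muscle genes were level, with 6 higher and 5 lower and a median of 0.05. *Myog* (0.25), *Des* (0.22) and *Atp2a1* (0.16) changed most, none past the threshold. The part of bone, neutrophil, adipocyte or other cells in the signals of the 10 genes was not tested.

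**Figure D4:**
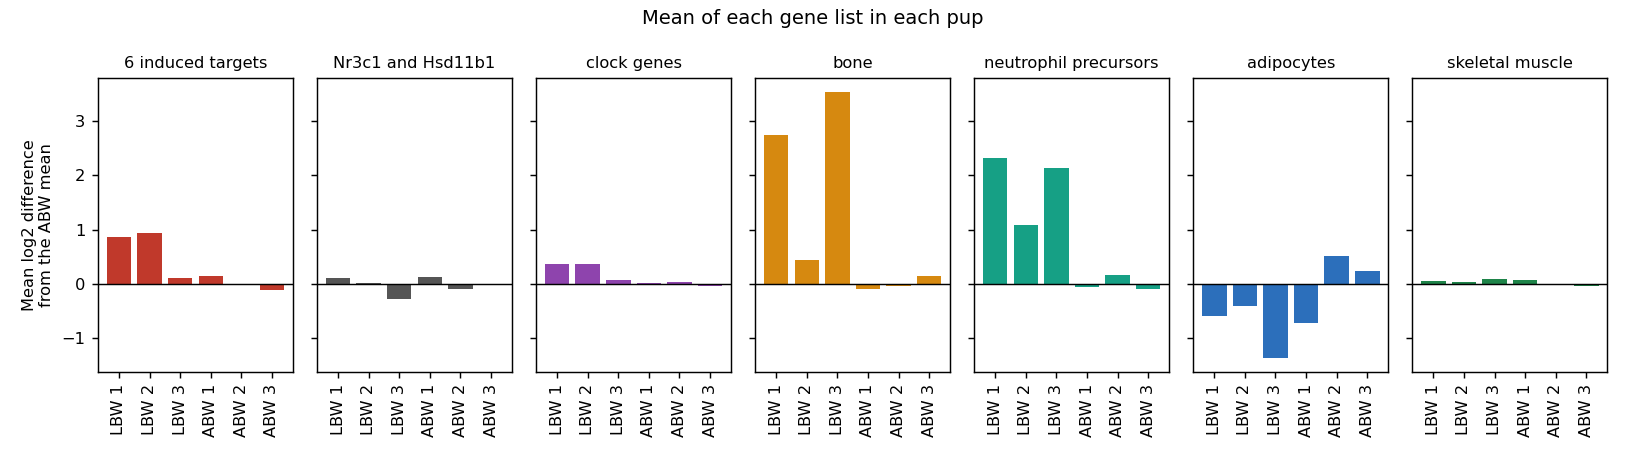
Mean log2 difference from the ABW mean in each of the 6 pups, as bars, for the 6 induced targets, *Nr3c1* with *Hsd11b1*, and 5 gene lists. The targets and the clock genes stand high in LBW 1 and LBW 2, the bone genes in LBW 1 and LBW 3, and the muscle genes stay near 0 in all pups.

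The genes whose signals lay nearest to those of the most variable members over the 6 arrays were also sought. The 3 members whose SD was above the 90th percentile of all features were *Tsc22d3*, *Cebpd* and *Klf9*, and likeness was the root mean square difference, in log2 units, between signals centred on the mean of each gene. Nearest to *Tsc22d3* were *Gadd45g*, a growth arrest gene (0.17), *Trim63* (0.18) and *Aqp9*, a glycerol channel (0.19). The signal of *Aqp9* was under the olfactory receptor floor in every pup. Nearest to *Cebpd* were *Zfp36*, the mRNA-destabilizing protein tristetraprolin (0.06), *Depp1* (0.08) and *Mchr1*, a receptor of melanin-concentrating hormone (0.08). Nearest to *Klf9* were *Zbtb16* (0.40), the immediate early gene *Fos* (0.44) and *Gpr157* (0.46). *Fos* was at 9.77, 10.32 and 9.49 in LBW 1, 2 and 3 and at 8.86, 8.67 and 8.93 in the ABW pups. *Fos* and *Klf9* thus shared groups that did not overlap, whereas *Zbtb16* came back to the ABW level in LBW 3. With 6 arrays shared by all genes and the lists searched over all named features, these neighbours are a description only.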

How the data were processed

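Each of 6 NimbleGen arrays of 1 colour held muscle RNA of 1 pup (3 LBW, 3 ABW). The authors deposited log2 values, 1 per transcript and array, that their own R and Bioconductor scripts had normalized, and the submitters' processing notes name RMA. Its version and the background correction are not given in the sources used here. The arrays had medians from 8.695 to 8.757. Of 26419 rows, 9747 matched a symbol of the RefSeq table of GRCr8. Rows of a symbol were averaged and the others kept, which gave 26299 features.

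LBW less ABW was fitted in R 4.3.3 with lmFit and eBayes of limma 3.58.1 (2-sided, Benjamini-Hochberg over all features, no block), a procedure tested on simulated data. An exact permutation test of each member, also 2-sided, cannot give a p under 0.1. With 3 arrays per group, their number limits the precision. The limma p-values set the group difference against the spread between these pups, with the variance of each feature drawn towards that of all features.

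The members and lists were chosen with earlier results of these data known, and *Klf9* stood in the study's own list of raised genes. Genes named are all members, the 4 largest changes and any call of each pathway list, the 3 largest changes and the brightest gene of each marker list, and the nearest genes of the 3 most variable members; *Errfi1*, *Fbxo32*, *Mstn* and *Slc37a4* were added after their values were seen. A gene that this rule names in the sodium transport list is not reported here. As alternatives, a pup was left out at a time, the replicate number was blocked, arrays were median-centred, quantile-normalized or weighted, the variance was made robust or followed intensity, rows were fitted separately, the dimmest 25% of features were dropped, and a fold change of 2, or the t-test that the methods name without saying whether it served the arrays, was used. They were applied to the lists of other induced targets and clock genes, and the olfactory receptor floor was set, after the data were seen.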

Additional observations from a re-analysis of the deposited data

How the results depend on the processing

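Of the 10 genes *Klf9* and *Cebpd* passed under every alternative that kept all pups except a fold change of at least 2, under which 1, *Klf9*, passed. The count of features called, 1124, was 584 by the t-test that the methods name in general but not for the arrays (0 after Benjamini-Hochberg), 335 at a fold change of 2, and between 1107 and 1336 under the others with all pups. Leaving out single pups gave 798 to 1546 features, 1 to 3 members, 0 to 125 features past an adjusted p of 0.05 by limma (125 without LBW 2, 0 otherwise) and 0.57 to 0.85 for the targets less *Nr3c1* and *Hsd11b1*. *Hsd11b1* changed sign to 0.080 under weighting of the arrays, to 0.15 without LBW 3 and to 0.084 without ABW 1, its range being -0.22 to 0.15, and *Hsd11b2* without LBW 2 (-0.091), its range being -0.091 to 0.42. The other induced targets called higher, 1 of 24, were 3 with the replicate block (*Igfbp1*, *Zbtb16* and *Trim63*), 2 without the dimmest 25% of features, 4 with an intensity trend, 4 with array weights and 1 to 4 when a pup was left out. The clock genes called, 2 of 13, were 0 at a fold change of 2 and 0 to 3 when a pup was left out. With an intensity trend and with array weights *Per1* joined them, and the count was 3 in both. The cause was not tested. Over all features, pups of the same number deviated together only weakly (correlations of 0.087, 0.104 and 0.055). This cannot show whether they shared a litter or slide. With the replicate block, which cannot move a fold change in this balanced design, 1230 features and 2 members were called. The block lowered the SE of *Fkbp5* from 0.27 to 0.10 and of *Hsd11b1* from 0.22 to 0.14. It raised the SE of *Nr3c1*, *Nr3c2* and *Glul*. *Ccl2* was not called with the replicate block, at a fold change of 2 or by the t-test. With 3 arrays per group and no detection value per probe, small changes and dim genes are poorly resolved.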
